A study of Homo sapiens with 3 samples.

Results

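Oxidative phosphorylation subunits are the nuclear-encoded proteins that build complexes I to V of the mitochondrial inner membrane. Complex I (NADH dehydrogenase) and complex II (succinate dehydrogenase) feed electrons into the chain, complex III (cytochrome bc1) passes them to cytochrome c, complex IV (cytochrome c oxidase) hands them to oxygen, and complex V (ATP synthase) uses the resulting proton gradient to make ATP. Most subunits are encoded in the nucleus and imported, while a small core is encoded in mitochondrial DNA. Members were chosen by gene symbol, as probe sets annotated to 1 protein-coding nuclear gene whose symbol starts with NDUFA, NDUFB, NDUFC, NDUFS, NDUFV, UQCR, COX4 to COX8 or ATP5, or is one of the SDH subunits or CYC1. The symbols gave 86 genes read by 168 probe sets, of 19775 genes and 54675 probe sets in all. Of these, 77 were structural subunits, with 33 in complex I, 3 in complex II, 7 in complex III, 17 in complex IV and 17 in complex V. The others were 8 complex I assembly factors that share the NDUFA prefix and the ATP synthase inhibitor ATP5IF1.

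The arrays held total RNA from C4-2B cells, an established human prostate cancer line of the LNCaP lineage that grows without testicular androgen. Cells of the C4-2B parental line received no drug and, per the study's methods, were passaged alongside the resistant cells. C4-2B MDVR cells were kept in medium with 20 µM enzalutamide, which blocks the androgen receptor, and C4-2B AbiR cells in medium with 10 µM abiraterone acetate, which inhibits androgen synthesis. Each line was measured once, on 1 Affymetrix HG-U133 Plus 2.0 array, and each resistant line is a single isolate, so that drug, isolate and array cannot be told apart.

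With 1 array per line there was no replicate error and no test, and every value below describes these 3 arrays. The deposited log2 values had been centred for each probe set, so only differences within a probe set were measured and no level was recoverable. Whether a gene was expressed, including the prostate markers that would check the labelled cell type, could not be read from them. A gene's difference is the mean of its probe sets, and ± gives the SD between them. This spread is not a replicate error, and its source was not tested. Spiked bacterial controls (45 probe sets) gave a scale of array noise. Their SD was 0.13 between the MDVR and parental arrays, 0.10 between AbiR and parental and 0.12 between MDVR and AbiR, with single controls off by up to 0.35, 0.20 and 0.34. The median gene differed by 0.04, −0.01 and 0.05 in the same order. The 7 prostate and luminal markers ranged from −4.07 to 0.37 in MDVR and from −3.17 to 0.30 in AbiR. The lowest in both was the kallikrein KLK3, an androgen target, while the prostate factor HOXB13 was at 0.37 and 0.17 and the luminal keratins differed in sign, with 0.32 and 0.30 for KRT8 and −0.10 in both lines for KRT18. The 7 markers of fibroblasts, leukocytes and endothelium ranged from −0.02 to 0.42 and from −0.17 to 0.44. Their part in the subunit values was not tested. Many subunit genes have processed pseudogenes, so that probe sets of suffix _s or _x, which are shared between transcripts or may cross-hybridize, are uncertain for single genes.

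Subunit genes lay slightly below the typical gene in C4-2B MDVR and slightly above it in C4-2B AbiR. The median of the 77 subunits was −0.06 in MDVR minus parental, which is 0.11 below the median of all genes, and 0.03 in AbiR minus parental, which is 0.04 above it. Between the resistant lines, MDVR minus AbiR, the median was −0.09, which is 0.14 below that of all genes. These distances from the typical gene do not depend on how the arrays are centred, whereas the sign of the AbiR median does: it was −0.06 when arrays were centred on hybridization controls, where the median of all genes moved to −0.10. In RNA from whole cultures, fewer cells with a transcript and less of it per cell cannot be told apart. Both resistant lines were compared with the same parental array, so that the first 2 comparisons are not independent.

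Differences below 0 were found for 47 of the 77 subunits in MDVR (61.0%), against 42.4% of all genes, and 30 were above 0, against 57.4%. In AbiR 45 subunits were above 0 (58.4%), against 47.4% of all genes. Between the resistant lines 55 were lower in MDVR (71.4%), against 39.9% of all genes, and 22 were higher, against 59.9%. Single differences were small. The MDVR array had 2 subunits at least 1.5-fold lower than parental and 0 at least 1.5-fold higher, against 5.15% and 4.81% of all genes. The AbiR array had 0 below and 1 above that size, against 2.52% and 3.32%. MDVR set against AbiR had 2 below and 0 above, against 3.96% and 2.77%. COXFA4, a complex IV subunit outside the chosen symbols, is not in these counts and was past 1.5-fold higher in MDVR, at 0.68. At a threshold of 2-fold, 0 subunits passed in any comparison, where the background was 1.67% lower and 1.65% higher in MDVR, 0.804% and 1.07% in AbiR, and 1.13% and 0.875% between the resistant lines.

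**Figure D1:**
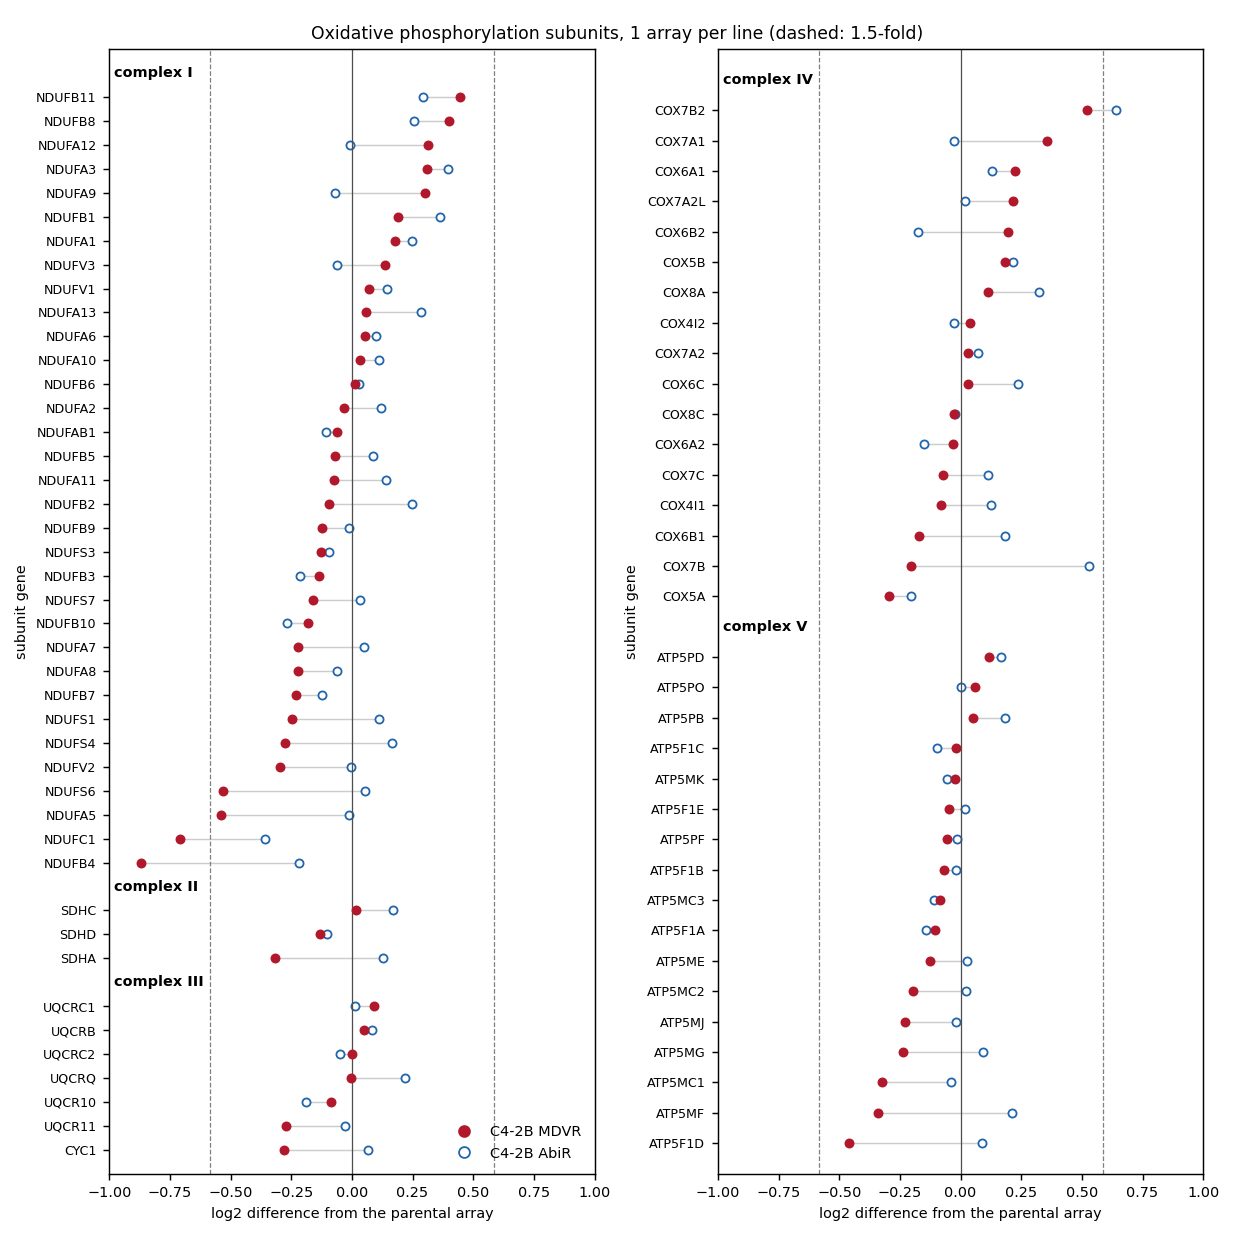
Subunit genes (y axis, 1 per row) are plotted against log2 difference to parental (x axis), with filled points for the MDVR array and open points for the AbiR array, with dashed lines at 1.5-fold and 1 array per line. NDUFB4 and NDUFC1 lie beyond the lower dashed line in MDVR, at −0.87 and −0.71, and COX7B2 lies beyond the upper one in AbiR, at 0.64.

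Complex I held the 2 subunits that passed 1.5-fold in MDVR, NDUFB4 and NDUFC1, both of its membrane arm. Their promoters are printed here beside that of NDUFB11, the complex I subunit with the highest difference in MDVR. Each line gives the 150 bases just before the RefSeq gene start, in the direction of transcription, on build GRCh38.p14, with capitals for matches to any of 4 motifs searched on both strands. NDUFB4 lies at chr3:120596186-120596335 on the plus strand, NDUFC1 at chr4:139302552-139302701 on the minus strand and NDUFB11 at chrX:47144703-47144852 on the minus strand.
NDUFB4: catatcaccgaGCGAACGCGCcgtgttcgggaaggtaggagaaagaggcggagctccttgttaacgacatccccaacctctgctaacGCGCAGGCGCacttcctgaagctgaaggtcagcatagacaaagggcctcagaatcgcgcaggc
NDUFC1: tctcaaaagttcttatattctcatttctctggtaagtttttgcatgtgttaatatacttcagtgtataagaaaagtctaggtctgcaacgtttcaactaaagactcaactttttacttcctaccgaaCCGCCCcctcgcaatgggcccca
NDUFB11: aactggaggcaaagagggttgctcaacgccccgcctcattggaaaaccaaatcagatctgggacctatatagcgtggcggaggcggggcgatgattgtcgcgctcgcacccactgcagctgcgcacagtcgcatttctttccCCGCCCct

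The motifs were those of regulators named in textbooks for respiratory chain genes. They were CCGGAAG for GABPA, GCGC and CGC with any 3 bases between them for NRF1, AAGATGG for YY1, and GGGCGG for SP1. The capitals mark 2 stretches with NRF1 matches in NDUFB4, one of them matched on both strands, and an SP1 match, on the minus strand, in each of NDUFC1 and NDUFB11. RefSeq windows of 300 bases, from 250 before to 50 after the gene start, were matched for 65 of the 77 subunits. The YY1 letters occurred in 15 of these 65 (23.1%), against 6.40% of 15842 protein-coding promoters. The GABPA letters occurred in 18 (27.7%), against 14.2%, the NRF1 letters in 23 (35.4%), against 23.7%, and the SP1 letters in 39 (60.0%), against 58.5%. By complex, the NRF1 letters were in 12 of 31 promoters of complex I, 2 of 2 of complex II and 4 of 5 of complex III. They were in 1 of 14 of complex IV and 4 of 13 of complex V. The YY1 letters were in 7 of 31 promoters of complex I, 0 of 2 of complex II and 2 of 5 of complex III. They were in 1 of 14 of complex IV and 5 of 13 of complex V. Subunits with the NRF1 letters had a median difference of −0.02 in AbiR and those without of 0.11. For MDVR the same medians came to −0.08 and −0.04. With the GABPA letters the order in AbiR was the other way, at 0.12 with and 0.02 without, and in MDVR the medians were −0.07 and −0.05. For YY1 they were 0.03 with and 0.02 without in AbiR, and 0.00 and −0.07 in MDVR. For SP1 they were 0.02 and 0.03 in AbiR, and −0.05 and −0.06 in MDVR. A match of letters is not evidence of binding.

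Across complex I, the medians of 33 subunits were −0.08 in MDVR, 0.05 in AbiR and −0.11 in MDVR minus AbiR. Below 0 were 20 subunits in MDVR (60.6%), 25 in MDVR minus AbiR (75.8%) and 14 in AbiR (42.4%). The shares over all genes were 42.4%, 39.9% and 52.4% in the same order. The subunits ranged from −0.87 to 0.45 in MDVR and only from −0.36 to 0.40 in AbiR. NDUFB4, an accessory subunit of the membrane arm, had centred values of 0.37 and 0.53 for its 2 probe sets on the parental array, −0.45 and −0.40 on the MDVR array, and 0.11 and 0.34 on the AbiR array. Both probe sets were lowest on the MDVR array and highest on the parental array. Its difference was −0.87 ± 0.08 in MDVR, a 1.83-fold lower signal, and −0.22 ± 0.05 in AbiR. NDUFB4 had the lowest difference of the 77 subunits in MDVR, and 2.26% of all genes had a lower one. Against AbiR its difference was −0.65 ± 0.13, again past 1.5-fold.

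NDUFC1, another small membrane-arm subunit, was 1.63-fold lower in MDVR, but its 2 probe sets disagreed in size. One had centred values of 0.15 on the parental, −0.15 on the MDVR and −0.18 on the AbiR array. The other had 0.19, −0.92 and −0.19. Both were lower than parental in both resistant lines, at −0.71 ± 0.57 in MDVR and −0.36 ± 0.04 in AbiR, the latter being the lowest value of complex I in AbiR.

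NDUFA5, an accessory subunit of the matrix arm, was lower in MDVR by both probe sets, with −0.65 and −0.43, and near parental in AbiR, with −0.04 and 0.02. NDUFS6, a matrix-arm subunit that carries zinc, had 1 probe set with centred values of 0.06 on the parental, −0.47 on the MDVR and 0.11 on the AbiR array. Its differences were −0.53 in MDVR and 0.05 in AbiR. Both stood apart on the MDVR array alone. NDUFB8 and NDUFB11, subunits of the membrane arm, went the other way. All 3 probe sets of NDUFB8 were higher than parental, by 0.32 to 0.55 in MDVR and by 0.20 to 0.29 in AbiR, with gene means of 0.40 ± 0.13 and 0.26 ± 0.05. NDUFB11, read by 1 probe set, was at 0.45 and 0.29. NDUFA3, with the highest value of complex I in AbiR, was at 0.31 and 0.40. For these 3 genes the parental array held the lowest value. NDUFA5, NDUFS6 and NDUFB8, like UQCR11, UQCRC2, COX8A, ATP5MG, NDUFAB1 and NDUFAF2, were named after their values were seen.

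The redox core of complex I holds the flavin and iron-sulfur clusters that carry electrons from NADH to ubiquinone, and all of its genes read here lay between −0.30 and 0.14. NDUFV1, the NADH-binding subunit, had differences of 0.07 ± 0.18 in MDVR and 0.14 ± 0.35 in AbiR, with its 2 probe sets on opposite sides of 0 in each. NDUFV2 was at −0.30 and −0.0023. NDUFS1, the largest matrix-arm subunit, was at −0.25 ± 0.32 and 0.11 ± 0.15, and 4 of its 5 probe sets were lower in MDVR. NDUFS3 was at −0.13 and −0.10, and NDUFS7 at −0.16 ± 0.24 and 0.03 ± 0.15. NDUFS8 was not analysed here. Among the other accessory subunits, some stood apart on 1 resistant array. NDUFA9 and NDUFA12, of the matrix arm, were higher on the MDVR array, at 0.30 and 0.32, and near parental on the AbiR array, at −0.07 and −0.0058, each by 1 probe set. NDUFS4 had means of −0.28 ± 0.16 and 0.17 ± 0.43, and NDUFB2 of −0.10 ± 0.19 and 0.25 ± 0.38, with the probe sets of both genes going both ways in AbiR. Others lay on the same side in both lines by all their probe sets. NDUFB1 was above parental, at 0.19 ± 0.04 and 0.36 ± 0.05, and NDUFB10 below it, at −0.18 ± 0.07 and −0.27 ± 0.05. These 6 genes were also named after their values were seen.

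By arm, the 14 matrix-arm subunits had medians of −0.14 in MDVR and 0.04 in AbiR, and the 18 membrane-arm subunits of −0.07 and 0.10. NDUFAB1, an acyl carrier protein present in both arms, was at −0.06 and −0.11.

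**Figure D2:**
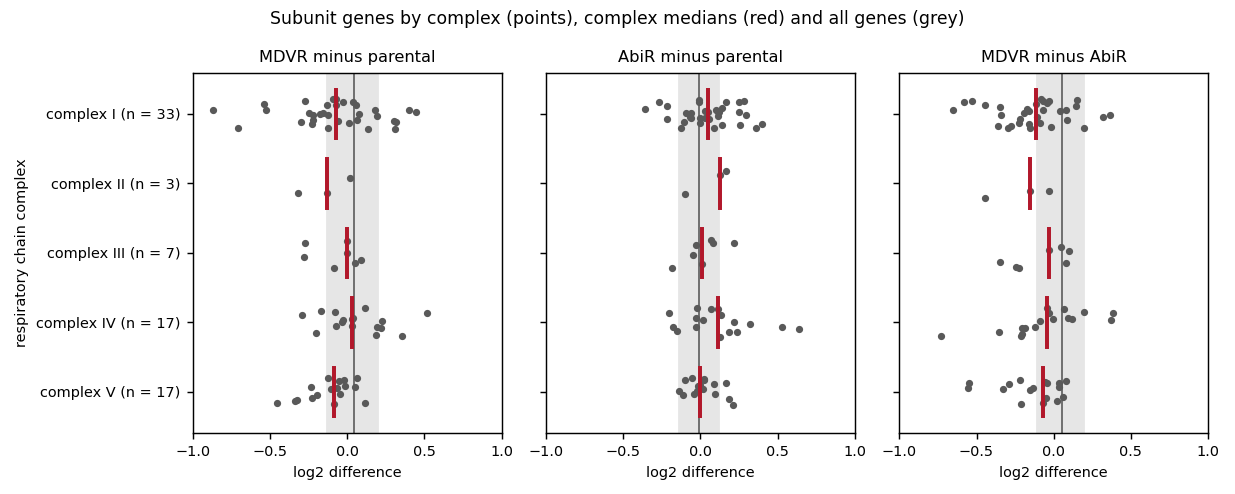
Points are subunit genes placed by log2 difference (x axis) for each complex (y axis), in the 3 comparisons. Red bars are complex medians, the grey line is the median of all genes and the grey band their interquartile range. In MDVR minus AbiR the median of every complex, from −0.03 to −0.15, lies below the grey line at 0.05.

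Complex II, the only complex with no subunit encoded in mitochondria, was read for 3 genes. SDHA, the flavoprotein that oxidizes succinate, had 1 probe set with centred values of −0.05 on the parental, −0.36 on the MDVR and 0.08 on the AbiR array. Its differences were −0.32 and 0.13. It has near-identical pseudogenes, and the suffix _x of its probe set makes the value uncertain. A further probe set, annotated jointly with SDHA pseudogenes, was left out. SDHD, one of the membrane anchors, was at −0.13 ± 0.13 and −0.10 ± 0.10.

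SDHC, the other membrane anchor, had a mean near 0 in MDVR, 0.02 ± 0.52, that hid 2 groups of probe sets. The 4 probe sets of suffix _s or _x were higher by 0.30 to 0.67, and the 3 without suffix were lower, at −0.33, −0.49 and −0.71. In AbiR all 7 were above parental, by 0.07 to 0.10 with suffix and by 0.23 to 0.36 without. Against AbiR the groups lay at 0.23 to 0.60 and at −0.69 to −0.99. The medians over the complex were −0.13, 0.13 and −0.15 in the 3 comparisons, and SDHB was not analysed here.

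Complex III had medians close to 0, at −0.0046 in MDVR, 0.01 in AbiR and −0.03 in MDVR minus AbiR over 7 genes. UQCRC1, a core subunit, was at 0.09 and 0.01, and UQCRC2, the other core subunit, at 0.00 ± 0.20 and −0.05 ± 0.14. CYC1, the heme-carrying cytochrome c1, had centred values of 0.06 on the parental, −0.22 on the MDVR and 0.12 on the AbiR array, and was the lowest of the complex in MDVR at −0.28. UQCR11 was close to it at −0.27 ± 0.19, and was at −0.03 ± 0.29 in AbiR. UQCRQ was the highest in AbiR at 0.22, with −0.0046 in MDVR, and UQCR10 the lowest there, at −0.19 ± 0.19. The Rieske protein gene UQCRFS1 was not analysed here.

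Complex IV was the only complex with a median above 0 in MDVR, at 0.03 over 17 genes, which is 0.01 below the median of all genes. It changed sign to −0.03 once suffixed probe sets were left out and to −0.04 with arrays centred on hybridization controls. In AbiR the median was 0.11, and 11 of 17 were above 0 (64.7%), against 47.4% of all genes. The 6 genes known as tissue-restricted isoforms had medians of 0.12 in MDVR and −0.03 in AbiR. Without them, 10 of 11 subunits were above 0 in AbiR, against 47.4% of all genes, with a median of 0.13, COX5A being the exception. The 2 probe sets of COX5A were at 0.0015 and −0.41 there. Of the 10, COX4I1, COX5B and COX6A1 had probe sets on both sides of 0. COX7A2L and COX7A2, at 0.02 and 0.07, lay inside the SD of the spiked controls, 0.10. Between the resistant lines the median was −0.04 with the isoforms and −0.19 without.

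Among the broadly expressed subunits, COX4I1 was at −0.08 ± 0.15 in MDVR and 0.12 ± 0.17 in AbiR, COX5A at −0.29 ± 0.17 and −0.20 ± 0.29, and COX8A at 0.11 and 0.32. COX5B had a mean of 0.18 ± 0.30 and 0.21 ± 0.28. Its 3 probe sets with suffix were higher by 0.26 to 0.42 in MDVR and by 0.29 to 0.40 in AbiR, while the probe set without suffix was at −0.26 and −0.20. COX7B, a small membrane subunit, split more widely. One probe set had centred values of −0.14 on the parental, 0.00 on the MDVR and 0.00 on the AbiR array, and the other had −0.39, −0.94 and 0.53. The mean in MDVR minus AbiR, −0.73 ± 1.03, passed 1.5-fold through the second probe set alone, whose own difference was −1.46.

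COX7B2, an isoform known from testis, was the subunit past 1.5-fold in AbiR. Its single probe set had centred values of −0.26 on the parental, 0.26 on the MDVR and 0.38 on the AbiR array, which gave differences of 0.52 and 0.64. The muscle isoform COX7A1 was at 0.36 and −0.03, the testis isoform COX6B2 at 0.19 and −0.18, the muscle isoform COX6A2 at −0.03 and −0.15, and the lung isoform COX4I2 at 0.04 and −0.03. COX7A2L, which takes part in joining complexes III and IV, was at 0.22 and 0.02. COXFA4, formerly NDUFA4 and now counted as a complex IV subunit, falls outside the symbols by its current name. It had centred values of −0.25 on the parental, 0.43 on the MDVR and −0.07 on the AbiR array, and differences of 0.68, 0.18 and 0.49. It was therefore past 1.5-fold higher in MDVR, and higher there than any of the 77 subunits, by 1 probe set. Its paralog COXFA4L2 was at 0.08 and 0.17.

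**Figure D3:**
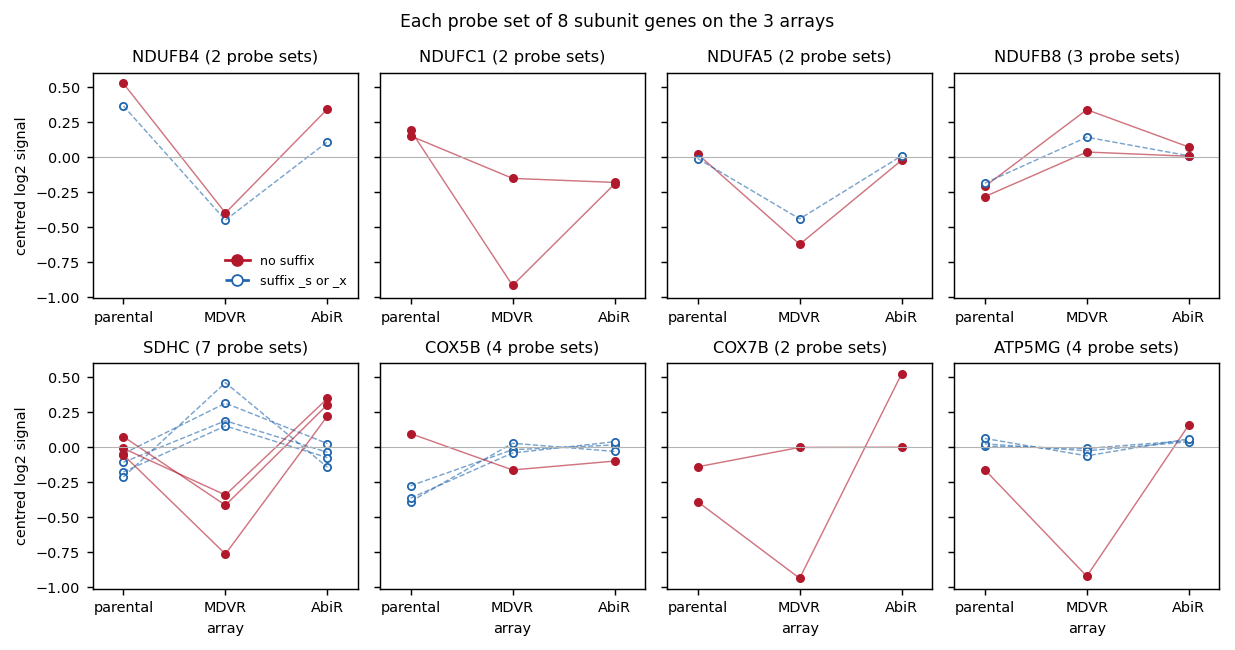
Each line joins the centred log2 values (y axis) of 1 probe set on the parental, MDVR and AbiR arrays (x axis), for 8 subunit genes chosen after their values were seen. Solid lines are probe sets without suffix and dashed lines those of suffix _s or _x. The 2 probe sets of NDUFB4 run together, those of SDHC part on the MDVR array, and 1 probe set each of COX7B and ATP5MG is at −0.94 and −0.92 there.

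Complex V had a median of −0.09 in MDVR, and 14 of its 17 subunits were below 0, against 42.4% of all genes. In AbiR the median was 0.0001 and 8 were below 0 (47.1%), against 52.4% of all genes. In MDVR minus AbiR the median was −0.07, with 12 below 0 (70.6%), against 39.9% of all genes. The range was narrow, from −0.46 to 0.12 in MDVR and from −0.14 to 0.21 in AbiR.

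In the catalytic F1 head, all 5 subunits were below 0 in MDVR, against 42.4% of all genes. Of these, only ATP5F1D lay beyond the SD of the spiked controls, 0.13. ATP5F1E was at −0.05 ± 0.63, with its 2 probe sets at 0.40 and −0.50. ATP5F1A and ATP5F1B, the alpha and beta subunits that bind nucleotides, lay at −0.10 ± 0.08 and −0.07 in MDVR. Their AbiR values were −0.14 ± 0.20 and −0.02. ATP5F1C, the gamma subunit of the central stalk, was at −0.02 ± 0.10 and −0.10 ± 0.19. ATP5F1D, the delta subunit, stood lowest. Its 2 probe sets had centred values of 0.14 and 0.01 on the parental, −0.29 and −0.48 on the MDVR, and 0.19 and 0.13 on the AbiR array. The MDVR array was lowest by both, and the differences were −0.46 ± 0.04 in MDVR and 0.09 ± 0.05 in AbiR.

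The 3 genes of the c ring, the rotor through which protons pass, were all below 0 in MDVR, against 42.4% of all genes. ATP5MC1 was at −0.33, ATP5MC2 at −0.19 ± 0.17 and ATP5MC3 at −0.09 ± 0.01. In AbiR they were at −0.04, 0.02 ± 0.14 and −0.11 ± 0.06. The 4 genes of the peripheral stalk, which holds the head still, had a median of 0.06 in MDVR and of 0.08 in AbiR, with ATP5PD the highest of complex V in MDVR at 0.12 ± 0.11. The 5 other membrane subunits were all below 0 in MDVR, against 42.4% of all genes, with a median of −0.23. Of these, ATP5MK was at −0.02, and the 2 probe sets of ATP5MJ were at −0.52 and 0.06. ATP5MF was at −0.34 by 1 probe set, and a further one, annotated jointly with ARMC2-AS1, was left out. In AbiR the median of the 5 was 0.02, and ATP5MF was at 0.21. ATP5MG owed its mean of −0.24 ± 0.35 to 1 probe set at −0.76, and the 3 probe sets of suffix _x were at −0.12 to −0.02. ATP5IF1, the inhibitor that stops the enzyme from running backwards, was at −0.14 ± 0.22 in MDVR and 0.23 ± 0.26 in AbiR.

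Probe sets of 1 gene often went both ways. This was so for 20 of the 43 subunits with more than 1 probe set in MDVR (46.5%), for 24 in AbiR (55.8%) and for 20 in MDVR minus AbiR (46.5%), against 50.5%, 51.2% and 54.7% of all such genes. Probe sets were also split by suffix. The 88 subunit probe sets without suffix had a median of −0.06 in MDVR and the 61 with one of −0.04. The corresponding medians over all single-gene probe sets were 0.03 and 0.06. Past 1.5-fold below parental in MDVR were 6 of the 88 (6.82%) and 1 of the 61 (1.64%), against 7.57% and 6.38% of all single-gene probe sets of the same kind. For the ACTB control, 3′ probe sets minus 5′ probe sets, a sign of RNA length, set against the parental array was −0.22 (MDVR) and −0.12 (AbiR), while GAPDH gave −0.05 and 0.06. Their part in these splits was not tested.

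Subunit genes lie on many chromosomes. Of the 6 chromosomes that hold 5 or more, chromosome 5 carries NDUFA2, NDUFS4, NDUFS6, SDHA, UQCRQ and COX7C. These 6 had medians of −0.17 in MDVR and 0.12 in AbiR, while the other 882 genes of that chromosome had medians of −0.04 in both. All 6 subunits were below 0 in MDVR, against 42.4% of all genes, and above 0 in AbiR, against 47.4%. In MDVR, UQCRQ, NDUFA2 and COX7C lay inside the SD of the spiked controls, 0.13, and NDUFA2 had probe sets on both sides of 0. In AbiR, NDUFS6 lay inside that SD, 0.10, and NDUFA2 and NDUFS4 had probe sets on both sides of 0. The 11 subunits on chromosome 19 had medians of −0.16 and 0.05, against 0.04 and 0.01 for 1309 other genes there. The 5 on chromosome 12 went the other way in MDVR, at 0.22 against 0.08 for other genes, and were at −0.0058 against −0.0085 in AbiR. The 5 on chromosome 16 were at −0.06 and −0.11, against 0.03 and 0.0005. Of them 4 were below 0 in each line, against 42.4% and 52.4% of all genes. The 5 on chromosome 11 were at −0.13 and 0.09, against 0.06 and −0.0031, and the 6 on chromosome 2 at −0.03 and 0.07, against 0.04 and −0.03.

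Genes that serve the respiratory chain without being nuclear subunits gave a reference. Of the assembly factors outside the members, 56 genes had medians of −0.10 in MDVR and −0.08 in AbiR. Among them 7 lay beyond 1.5-fold below parental in MDVR, against 5.15% of all genes. SDHAF4, which assists the maturation of SDHA, was at −1.80 in MDVR and −0.36 in AbiR, by 1 probe set. CMC2, a factor for complex IV, was at −1.47 and −1.01, LYRM7, a chaperone of the Rieske protein of complex III, at −1.06 ± 0.32 and −0.0027, and FMC1, a factor for ATP synthase, at −1.03 and −0.09. These 4 passed 2-fold, against 1.67% of all genes. COX15, which makes the heme of complex IV, was the highest in MDVR at 0.32 ± 0.15, and COX20, a chaperone for a complex IV subunit, in AbiR at 0.60. The 8 assembly factors with the NDUFA prefix had medians of −0.13 and −0.14. Below 0 were 5 of the 8 in MDVR and 7 in AbiR, against 42.4% and 52.4% of all genes. Of these, NDUFAF2 had centred values of 0.49 on the parental, −0.02 on the MDVR and −0.31 on the AbiR array, and differences of −0.51 and −0.80.

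Other mitochondrial lists had values of their own in AbiR, where most mitochondrial ribosomal protein genes and most import and dynamics genes were below 0. The 75 mitochondrial ribosomal protein genes had medians of −0.10 in MDVR and −0.16 in AbiR, with 64 below 0 in AbiR, against 52.4% of all genes. The 33 import and dynamics genes had medians of −0.10 and −0.16, with 30 below 0 in AbiR. Between the resistant lines these lists had medians of 0.10 and 0.07, on the other side of 0 from the subunits at −0.09. MRPS30 was lowest of the former in MDVR at −1.18 ± 0.65 and MRPS18A in AbiR at −0.89, while MRPS6 was highest in both at 0.47 and 0.26. TIMM10, a chaperone of the intermembrane space, was lowest of the latter in both at −0.69 ± 0.01 and −0.39. IMMT was highest in MDVR at 0.23 and the fission gene FIS1 in AbiR at 0.14.

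The 17 genes of the tricarboxylic acid cycle had medians of −0.04 and −0.0021, with DLD lowest in MDVR at −0.65 ± 0.69, DLAT lowest in AbiR at −0.56 and IDH2 highest in both at 0.44 ± 0.49 and 0.56. The 17 genes of cytochrome c and ubiquinone supply had medians of −0.19 and −0.10. CYCS, cytochrome c itself, was at −0.28 ± 0.07 in MDVR and 0.11 ± 0.36 in AbiR. COQ4 was lowest in MDVR at −0.47 and GPD2 in AbiR at −0.45, and COQ5 was highest in both at 0.28 and 0.24. The 7 mitochondrially encoded subunits read by single-gene probe sets had medians of 0.02 and −0.02. ND6 was lowest at −0.55 and −0.56, ND2 was highest at 0.23 and 0.11, and COX1 was at −0.52 and −0.03.

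The 22 regulators of mitochondrial gene expression had medians of −0.02 in MDVR and −0.12 in AbiR. PPARGC1A, the coactivator of mitochondrial biogenesis, was at −0.07 ± 0.26 and −0.10 ± 0.16, its partner receptor ESRRA at 0.02 and 0.01, NRF1 at −0.15 ± 0.10 and −0.08 ± 0.09, and TFAM, which packages and transcribes mitochondrial DNA, at −0.33 ± 0.20 and −0.47 ± 0.12. GABPA had means of −0.43 ± 1.06 and −0.45 ± 0.16, its 2 probe sets disagreeing in MDVR and lying closer together in AbiR. GABPB2 was lowest in MDVR at −1.08 and at 0.18 in AbiR. MYC was highest in MDVR at 0.50 and lowest in AbiR at −0.53, and with 1.03 had the highest value of the list in MDVR minus AbiR.

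**Figure D4:**
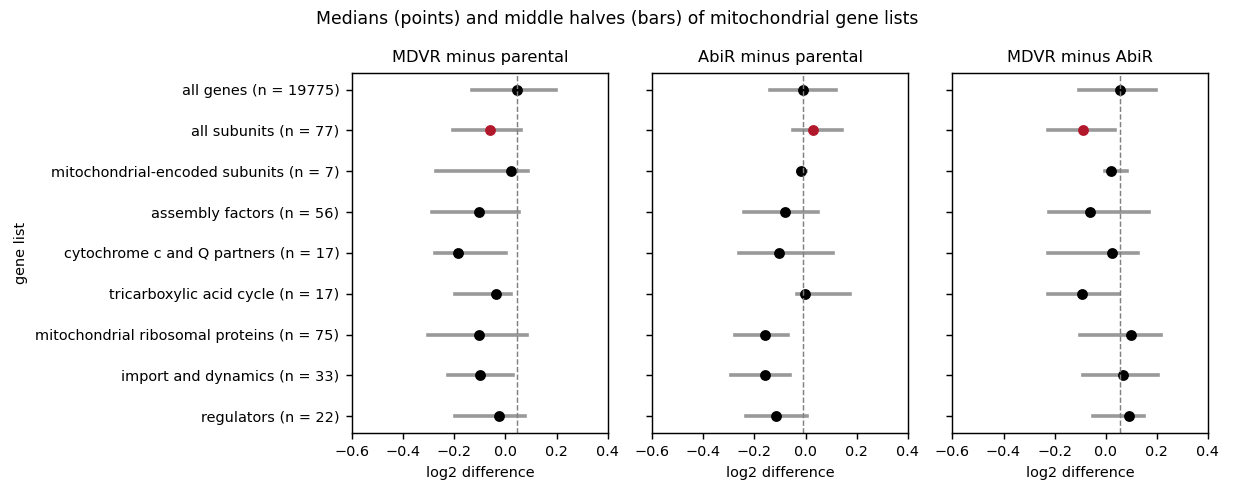
For each gene list (y axis, number of measured genes in brackets) a point gives the median of its log2 differences (x axis) in the 3 comparisons, and the bar spans the interquartile range. The dashed line is the median of all genes. The subunits, in red, lie at 0.03 in AbiR minus parental, where mitochondrial ribosomal proteins and import and dynamics genes lie at −0.16.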

How the data were processed

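RNA of 3 cell lines was hybridised to 3 arrays, 1 per line, and groups were taken from the sample titles. The values the authors deposited are on the log2 scale. The submitters' processing notes name RMA, and its version is not given in the sources used here. The deposited log2 values were signed and centred for each probe set by a step not stated. Of all probe sets, 53.4% held a pair of values mirrored around 0 and 1.66% an exact 0, at a tolerance of 2e-06. The column medians were 0.00 on the parental, 0.027 on the MDVR and −0.0053 on the AbiR array. The number of arrays limits the precision.

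The platform annotation gave each probe set its gene, and symbols were updated through gene IDs with RefSeq (GRCh38.p14), which lacked the ID of 54 of 41097 single-gene probe sets. Left out were 14 probe sets annotated jointly with other genes, 2 of pseudogenes and 4 of non-coding RNAs. Complex membership, the assembly factor and other lists were written by hand, and the members and lists were chosen with earlier results of these data known. Differences between arrays were averaged over the probe sets of a gene with pandas 2.3.3 and numpy 2.4.6 in Python 3.11.15, with no floor and no test. Thresholds of 1.5-fold and 2-fold describe size only. Gene means, medians and counts were tested on simulated data. Genes named were, for each complex, the highest and lowest in MDVR and AbiR among those with all probe sets on 1 side of 0, a set list of core subunits, isoforms and regulators, every subunit past 1.5-fold, and the highest and lowest of each other list in each comparison, not all of which are given. Besides those marked above, COX6A1, COX7A2, ATP5F1E, ATP5MJ, ATP5MK, LYRM7 and FMC1 were named after their values were seen. Alternatives changed how probe sets were summarized or left out, how arrays were centred, and which isoforms were counted. Protein sequences were not used here.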

Additional observations from a re-analysis of the deposited data

Results flagged for a closer look

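Some values lay on opposite sides of the parental array in the resistant lines, and the difference was not tested, since each line has 1 array and the parental array is shared. The median of the 77 subunits was −0.0623 in MDVR and 0.0295 in AbiR. The medians were −0.0753 and 0.0506 for complex I, −0.13 and 0.13 for complex II, −0.0046 and 0.0126 for complex III, and −0.0866 and 0.0001 for complex V. Single subunits were listed where they met the naming rule, all their probe sets lay on 1 side of 0 in each line and both values exceeded the SD of the spiked controls. Of these, ATP5MF was at −0.34 and 0.21, SDHA at −0.32 and 0.13, and COX6B2 at 0.19 and −0.18. Each of these 3 genes was read by 1 probe set. For ATP5MF and SDHA a further probe set, annotated jointly with other genes, was left out.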

How the results depend on the processing

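No paired analysis was possible because each line has 1 array, and for the same reason no array could be left out. Medians of the 77 subunits kept their sign under all alternatives in MDVR and in MDVR minus AbiR. With arrays centred on hybridization controls, the AbiR median became −0.0615 for all subunits, −0.0404 for complex I, −0.0785 for complex III and −0.0909 for complex V, and the MDVR median of complex IV became −0.0358. That of complex V in AbiR was also −0.0167 with the median of probe sets, −0.0029 with each probe set on its own and −0.0182 with the probe set of largest SD. In MDVR minus AbiR, complex III was at 0.0505 with the median of probe sets and at 0.0402 with each probe set on its own. Once probe sets with a suffix _s, _x or _a were left out, complex IV was at −0.0268 in MDVR, and complex II, then 2 genes, at −0.32 in MDVR and −0.41 in MDVR minus AbiR. With the probe set of largest SD standing for the gene, complex II was at −0.32 and −0.45 and complex III at −0.15 and −0.17 in these comparisons, and complex V at −0.24 in MDVR minus AbiR. Without tissue-restricted isoforms, complex IV was at −0.19 there. COXFA4, added after seeing the data, left complex IV at 0.03, 0.12 and −0.04. With it, complex IV had 1 subunit at least 1.5-fold higher in MDVR.

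Counts at 1.5-fold were small and moved. Lower subunits in MDVR numbered 4 of 64 without suffixed probe sets and 4 of 77 with hybridization controls. They numbered 6 of 77 with the probe set of largest SD. Each probe set on its own gave 7 of 149 probe sets. Of all single-gene probe sets, 7.57% without suffix and 6.38% with one were that much lower in MDVR. In MDVR minus AbiR lower subunits numbered 5 of 64 without suffixed probe sets and 4 of 77 with arrays centred on their median. They numbered 10 of 77 with the probe set of largest SD. Each probe set on its own gave 12 of 149 probe sets, against 7.05% without suffix and 5.03% with one of all single-gene probe sets. For the lower counts under the other settings, shares over all genes were not computed. Higher subunits in AbiR numbered 0 of 77 with hybridization controls and 0 of 71 without isoforms. They numbered 2 of 77 with the probe set of largest SD and 2 of 149 with each probe set on its own. Each probe set on its own gave 1 of 149 higher in MDVR and 1 of 149 in MDVR minus AbiR.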
